A study of Homo sapiens with 4 samples.

Results

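BT474 is a HER2-positive, luminal breast cancer cell line, and the resistant clone was raised from it by selection in lapatinib, a drug that blocks the kinase activity of HER2 and EGFR. Both samples of that line were taken from a series of 4 samples, the other pair being SkBr3 cells and an SkBr3 clone made the same way. Parental BT474 cells were labelled as vehicle-treated, and the clone was labelled as lapatinib-treated, after exposure to rising concentrations of up to 1 μM. The study asked which genes are raised in resistant cells, with a particular interest in the NF-κB pathway. The clone is 1 isolate, numbered 6 in the sample's label and 3 in the study's account of its results, and each cell population was hybridised to 1 array. No difference below therefore has a replicate or a test, and a difference between 2 single arrays cannot be told apart from one between 2 dishes or 2 RNA preparations. A clone also differs from the mixed population it came from, so selection of 1 cell and exposure to lapatinib cannot be told apart.

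HER2 and its partners signal through the RAS-ERK and PI3K-AKT pathways. ERK signalling switches on its own inhibitors, such as DUSP and SPRY genes, while AKT keeps FOXO transcription factors out of the nucleus, so transcripts of both sets are commonly read as outputs of these receptors. ATF4 is the transcription factor of the integrated stress response and drives genes of amino acid synthesis and transport.

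The arrays carried 41000 distinct probes, and the signal below is the background-subtracted, processed intensity of a spot. The 75th percentile of the signal was 1158 in parental BT474 and 1681 in the clone, and 68.3% and 74.0% of the probes were well above background. Each log2 difference is clone minus parental after each array's 75th percentile was subtracted, so the printed signals must be set against those 2 percentiles. Probes entered the comparison if they had a signal of 100 or more, well above background, on either array (kept probes). Where a gene had several, the one brightest on average over both arrays stood for the gene. Both BT474 arrays shared a slide. Probes spotted 10 times had a median SD of 0.0710 log2 units in parental BT474 and 0.0708 in the clone, which covers the spread between spots only. Among the 3563 genes with more than 1 measured probe, probes of the same gene lay a median of 0.27 log2 units apart.

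Of 23624 kept probes, 2330 (9.86%) had a signal at least 2-fold higher in the clone and 1124 (4.76%) one at least 2-fold lower, with a median difference of -0.04. Among the probes that moved at least 2-fold, 67.5% were higher, and this share was 48.2% when the arrays were scaled by the median, which shifted the median of all kept probes to -0.25. By gene, 978 of 11248 (8.69%) were higher in the clone by 2-fold or more and 561 (4.99%) were lower by as much, and these 2 shares are the background for every list below. Changes of at least 8-fold were seen for 169 genes upward and 55 downward. As RNA came from whole cultures, fewer cells of a type and less RNA per cell cannot be told apart.

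The cell type label was read against its defining markers. ERBB2, the gene of HER2, had a signal of 256346 in parental BT474 and 237327 in the clone, GRB7 of 15500.4 in parental BT474 and 19659.5 in the clone, and KRT8, a luminal keratin, of 112501 in parental BT474 and 105289 in the clone. The luminal genes ESR1, PGR, GATA3, FOXA1, KRT18, KRT19, CDH1 and EPCAM were likewise well above background on both arrays. Of 10 fibroblast markers, THY1 alone was kept (1275 and 1705), and COL1A2, COL3A1, DCN, LUM and PDGFRB were not. Of 10 leukocyte markers, FCER1G (538 and 545) and CD14 (109 and 115) were kept, while PTPRC and CD3E were not. Of 8 endothelial markers, VWF (-1.12), ESAM (0.20) and ERG (0.37) were kept, and PECAM1, CDH5 and KDR were not. Both arrays thus carried the markers of the labelled luminal line.

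**Figure D1:**
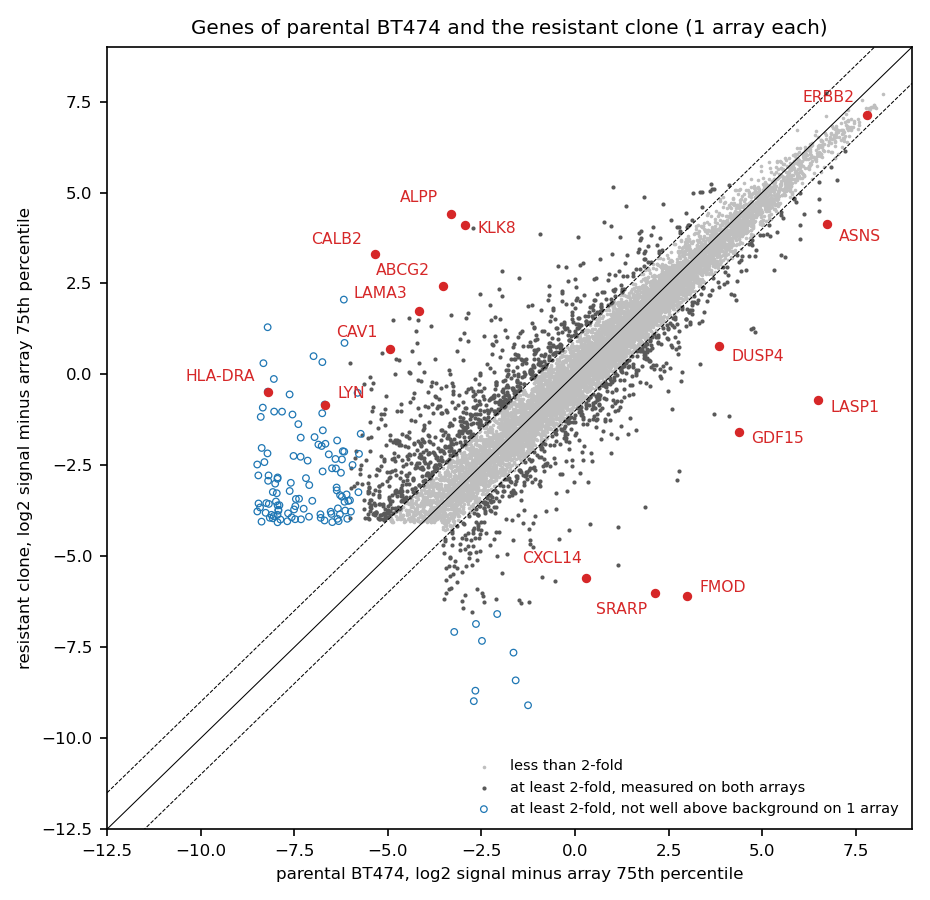
Log2 signal of 11248 genes in parental BT474 (x axis) and in the resistant clone (y axis), each minus the array's 75th percentile. Solid and dashed lines mark no difference and a 2-fold difference, open circles are genes not well above background on 1 array, and the genes named in red include CALB2 (8.66) at one extreme and FMOD (-9.09) at the other.

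The largest upward differences were in CALB2, ALPP and KLK8. CALB2, which encodes the calcium-binding protein calretinin, had a signal of 28.4 in parental BT474 and 16649 in the clone, a 404-fold difference. ALPP, the placental alkaline phosphatase gene, had 116 in parental BT474 and 35669 in the clone (212-fold), and KLK8, a secreted kallikrein protease, had 152 in parental BT474 and 29013 in the clone (132-fold). All 3 were well above background on both arrays. The 20 largest upward differences measured on both arrays also held CBLN2 (6.76), the connexin 43 gene GJA1 (6.34), GEM (6.33), SCIN (5.99), KLK5 (5.77), TMTC1 (5.69), CFAP61 (5.44), DIO1 (5.35), PAPSS2 (5.18), PGLYRP2 (5.15), GLIS1 (5.10) and DSCAM (5.08), with ABCG2, LAMA3 and CAV1 described below. PTGES, the prostaglandin E synthase gene, had a signal of 25.8 in parental BT474 and 1587 in the clone. PGM5 had 4 kept probes with differences of 1.31 to 5.2, so its size depends on the probe.

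Another set of genes was not well above background in parental BT474 and bright in the clone, so only a lower limit can be given. The limit sets the clone's scaled signal against the dimmest signal marked well above background on the parental array, 15.96, or against the probe's own parental signal where that was higher, and limits of a lower signal use 14.6 on the clone array. TMEM139 was at least 301-fold higher, with a signal of 16.01 in parental BT474 and 6989 in the clone. CCAR1, NUDT10, SRRM4, CYP4F22 and ARPP21 followed with at least 178, 130.2, 103, 91.7 and 89.8-fold. XG, a blood group antigen gene, HLA-DRA, PCDH9 and the SRC-family kinase gene LYN completed the 10 largest, at least 66.5, 52.2, 49.5 and 40.9-fold higher. The other NUDT10 probe differed by 2.56 and the other ARPP21 probe by 5.42. CCAR1 rests on 1 probe, with a signal of 3.91 in parental BT474 and 4129 in the clone. The same probe had 3705 in parental SkBr3 and 4854 in the SkBr3 clone, so parental BT474 stood apart from the other arrays. Whether the transcript or its binding to this probe differed was not tested.

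At the other extreme, FMOD, which encodes the collagen-binding proteoglycan fibromodulin, had a signal of 9273 in parental BT474 and 24.8 in the clone, a 544-fold difference on 1 probe. SRARP, a steroid receptor-associated protein gene, had 5129 in parental BT474 and 25.9 in the clone, and its 2 probes differed by -8.17 and -5.19. LASP1, an actin-binding protein gene near ERBB2, had 104958 in parental BT474 and 1039 in the clone (147-fold lower, 1 probe). Signals were also lower for GUCY1A1, a subunit of the nitric oxide receptor (-6.39), the chemokine gene CXCL14 (-5.88), the lipoxygenase gene ALOX15B (-5.62), APOE (-5.50), the adhesion molecule genes CEACAM6 (-5.35) and CEACAM7 (-4.09, other probe -2.98), and LDHB (-5.24), which encodes the heart-type lactate dehydrogenase subunit. CALML5, RAB38, KCNMA1, TRIL, PARP8, FBXL7, DCLK1 and KLHDC7B differed by -5.16, -5.03, -4.85, -4.80, -4.69, -4.69, -4.50 and -4.12. SOX3 disagreed between probes, at -5.44 for the brighter and 1.1 for the dimmer one. Limits of a lower signal existed for 9 genes, of which SHLD1 (at least 48.0-fold lower), RIPOR3 (38.2), CLGN (36.7) and ARMCX3 (22.7) were the largest, followed by CEACAM3, UGT3A2, EPHX2, RNF113B and ZNF239 (20.5, 18.3, 18.1, 17.6 and 12.2).

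Genes of the ATF4 stress response were lower together. Of 24 list genes, 22 had a value, and 15 of these were at least 2-fold lower and 0 at least 2-fold higher, against the background of 4.99% and 8.69%. The list's median was -1.67, beside -0.08 over all genes. For 1 member the filter was met in the parental array only. The largest difference was in SLC7A11, the cystine transporter gene, whose signal was 298 in parental BT474 and 38.2 in the clone, with probe differences of -4.66 and -3.50. ASNS, asparagine synthetase, had 121960.0 in parental BT474 and 29335 in the clone, a 6.03-fold difference. All 3 enzymes of serine synthesis were lower, with PHGDH at 27208 in parental BT474 and 12319 in the clone (-1.68), PSAT1 at 22857 and 6918 (-2.26) and PSPH at 54310.3 and 33284 (-1.24). SHMT2 (-1.41) and PCK2 (-1.71), both mitochondrial enzymes, moved the same way. The transcripts of stress-induced regulators were lower as well. DDIT3, which encodes CHOP, had a signal of 5858 in parental BT474 and 1973 in the clone (4.31-fold lower). DDIT4, an inhibitor of mTORC1, differed by -2.44, the glutathione-degrading enzyme gene CHAC1 by -2.36, the pseudokinase gene TRIB3 by -1.65, SESN2 by -1.87, VLDLR by -2.0, CEBPB by -1.90 and CEBPG by -1.38. ATF4 itself was lower by less, with 184550.0 in parental BT474 and 157115 in the clone (-0.77). ATF5 (-0.81), CTH (-0.77), NUPR1 (-0.66), the amino acid transporter gene SLC7A5 (-0.20) and ATF3 (-0.01) also stayed within 2-fold. STC2 was the exception in direction (0.79). GDF15, a stress-induced cytokine that is not on the list, had 24127 in parental BT474 and 556 in the clone, 63.0-fold lower. In the SkBr3 pair none of the same 22 genes was at least 2-fold lower, 4 were at least 2-fold higher and the median was 0.24. The difference between the 2 lines was not tested.

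ATF4 pairs with C/EBP proteins on elements related to TGATGNAA. These letters, chosen after the values were seen and searched on both strands of the 250 bases before each RefSeq gene start (GRCh38.p14), were found for 4 of the 20 list genes with a promoter sequence, and for 3.89% of 27305 genes. The windows with a match are shown 5′ to 3′ on the gene's strand, with the matched letters in capitals. They are shown because the letters stood before 3 genes at least 2-fold lower in the clone and before ATF3, which was not. Over the list, 15 of the 22 genes with a value were at least 2-fold lower, so a match did not set the lower genes apart.
ASNS (chr7:97872447-97872498, minus strand): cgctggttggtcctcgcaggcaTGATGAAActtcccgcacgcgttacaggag
CHAC1 (chr15:40953240-40953291, plus strand): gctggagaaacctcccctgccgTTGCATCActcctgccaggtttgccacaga
CEBPG (chr19:33374049-33374100, plus strand): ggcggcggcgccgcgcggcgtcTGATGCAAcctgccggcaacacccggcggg
ATF3 (chr1:212565194-212565245, plus strand): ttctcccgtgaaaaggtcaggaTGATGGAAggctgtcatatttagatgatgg
In CHAC1 the match lies on the opposite strand, and no match overlapped another of the motifs searched. A match is a run of letters and was not tested for binding.

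**Figure D2:**
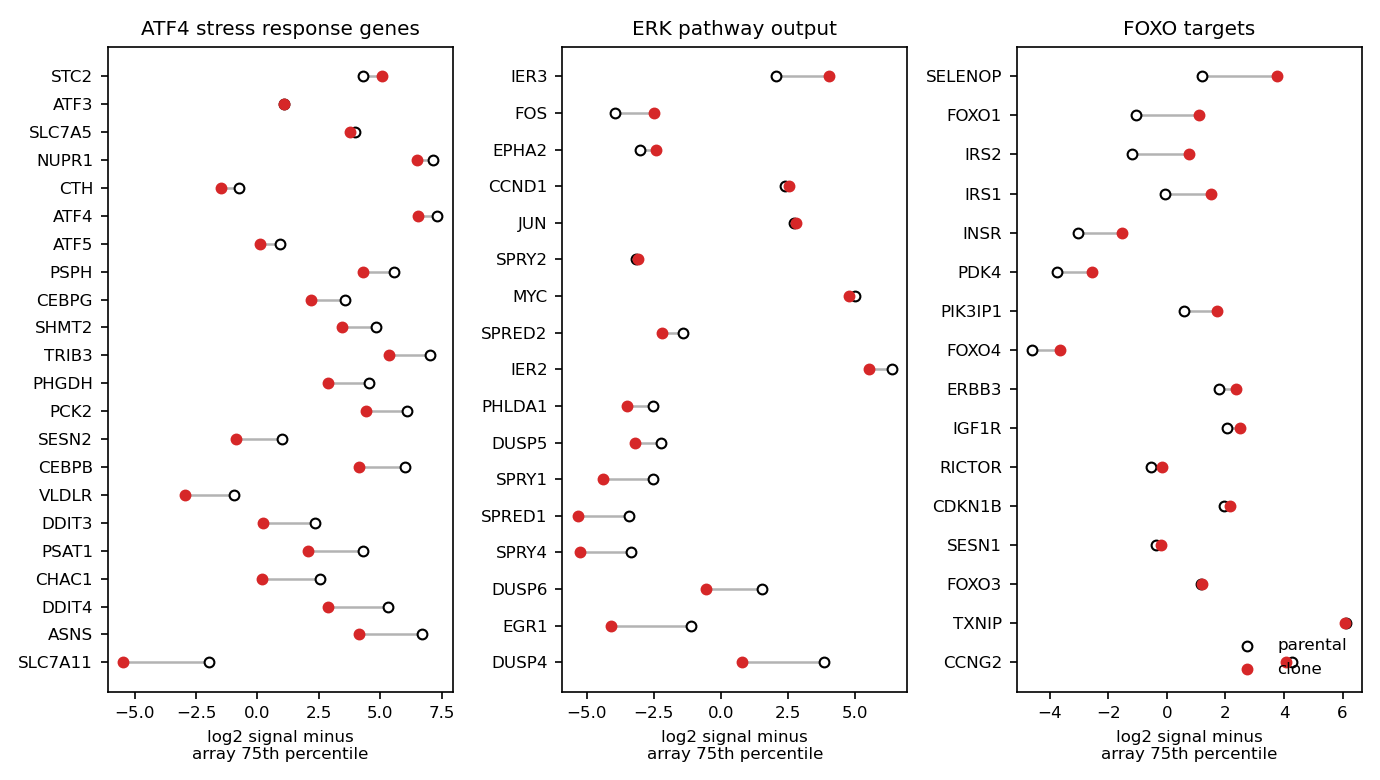
Log2 signal minus the array's 75th percentile (x axis) for each gene with a value in the ATF4, ERK and FOXO lists, with parental BT474 as open and the clone as red circles, 1 array each. In the clone, 15 of 22 ATF4 genes lie at least 2-fold to the left, beside 4.99% of all genes. Of the 16 FOXO targets, 7 lie at least 2-fold to the right, beside 8.69% of all genes. The ERK list splits between DUSP4 (-3.06) and IER3 (1.96).

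Downstream of ERK, several but not all negative regulators were lower, and immediate early genes went both ways. Of 17 genes with a value, 6 were at least 2-fold lower and 2 at least 2-fold higher, and the median was -0.84. Of the 17 genes kept, 4 met the filter only in the parental array and 1 only in the clone array. DUSP4, a phosphatase that inactivates MAP kinases, had a signal of 16587 in parental BT474 and 2887 in the clone, an 8.34-fold difference. DUSP6, the cytoplasmic ERK phosphatase, had 3381 in parental BT474 and 1162 in the clone (4.22-fold lower), and the immediate early transcription factor EGR1 had 532 in parental BT474 and 99.3 in the clone (7.77-fold lower). The inhibitors SPRY4 (-1.90), SPRED1 (-1.89) and SPRY1 (-1.87) were lower from parental signals of 113, 107 and 201. Not all members moved this way. DUSP5 (-0.99), PHLDA1 (-0.95), IER2 (-0.84) and SPRED2 (-0.75) were within 2-fold, as were MYC (-0.21), JUN (0.07), SPRY2 (0.07), CCND1 (0.18) and EPHA2 (0.59). FOS (1.46) and IER3 (1.96) were higher. None of the values of DUSP4, DUSP6 and EGR1 was a limit. Scaling by the median gave 9 genes at least 2-fold lower, but it also raised the lower kept probes from 1124 to 1873. Normexp with quantile normalization gave 6 lower and 1 higher, with a list median of -0.67. EGR1 and SPRY4 were also lower in the SkBr3 pair (-2.82 and -1.93), whereas DUSP6 was higher there (1.29) and DUSP4 within 2-fold (0.05).

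Targets of FOXO transcription factors were higher or within 2-fold. Of 16 genes with a value, 7 were at least 2-fold higher and 0 lower, with a median of 0.78. For 2 members the filter was met in the clone array only. SELENOP, the plasma selenium carrier, had 2666 in parental BT474 and 22956 in the clone (5.94-fold), and FOXO1 itself had 559.8 in parental BT474 and 3576 in the clone (4.40-fold), with its other probe at 1.53. The insulin signalling genes moved in the same direction. IRS2 had a signal of 511 in parental BT474 and 2864 in the clone, IRS1 of 1095 in parental BT474 and 4785 in the clone and the insulin receptor gene INSR of 142 in parental BT474 and 577 in the clone, differences of 1.95, 1.59 and 1.49. PDK4, a pyruvate dehydrogenase kinase, differed by 1.22 and PIK3IP1, a PI3K inhibitor, by 1.11. FOXO4 (0.96), ERBB3 (0.61), IGF1R (0.46), RICTOR (0.37), CDKN1B (0.20), SESN1 (0.17), FOXO3 (0.03), TXNIP (-0.04) and CCNG2 (-0.22) were within 2-fold. In the SkBr3 pair the same genes had a median of -0.18, with IRS2 (5.2), IRS1 (2.06) and INSR (1.56) higher and SELENOP lower (-4.41).

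The HER receptors and the amplified neighbours of ERBB2 were mostly within 2-fold. ERBB2 differed by -0.65 on 1 probe and -0.26 on the other. Of the 13 amplicon genes with a value, PPP1R1B alone was beyond 2-fold, with 30.8 and 272, and the median was -0.06, or 0.27 after quantile normalization. EGFR was lower (217 and 124, -1.34), ERBB4 differed by -0.72, and the ligand gene AREG was lower (6802 and 2927, -1.75), while the ligand genes TGFA (0.02) and BTC (0.0044) were well within 2-fold and 7 other EGF-family ligands were not kept. The 18 other genes from RPL23 to ORMDL3 in RefSeq order, a stretch that holds both LASP1 and ERBB2, differed by -0.65 to 2.61 with a median of -0.10, so the single LASP1 probe stood apart from its neighbours. None of the 7 feedback inhibitors of the HER receptors with a value reached 2-fold (-0.91 to 0.83). Among 15 other receptor tyrosine kinases with a value, FGFR2 (1.96), INSR and NTRK2 (at least 4.99-fold) were higher and MST1R (-1.06) was lower. Among 5 SRC-family kinases with a value, LYN had 11.2 in parental BT474 and 947 in the clone and FYN had 187 in parental BT474 and 939 in the clone (1.79), and the other 3 were within 2-fold.

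Of the 8 MHC class II presentation genes with a value, 7 were at least 2-fold higher in the clone, with a median of 2.94. Of these 8, 5 met the filter in the clone array only, so the filter itself favoured a higher value, and 3 more list members, CD74, HLA-DPA1 and HLA-DQA1, were not kept. CIITA, the master activator of class II genes, had a signal of 59.7 in parental BT474 and 696 in the clone (8.03-fold). HLA-DRA, the alpha chain of HLA-DR, was at least 52.2-fold higher, from 3.92, not well above background, to 1209. HLA-DRB1 had 716 in parental BT474 and 7642 in the clone (7.36-fold), and its probe was well above background on both arrays. The peptide-loading genes HLA-DMA and HLA-DMB had signals of 1500.3 and 1183 in the clone, 16.3-fold and at least 39.4-fold higher. HLA-DQB1 (2.09) and HLA-DPB1 (2.12) were higher, and HLA-DOA (0.93) stayed within 2-fold. Probes of HLA-DR and HLA-DQ genes can bind near-identical copies, and alleles of the line may bind a probe unequally. Class I genes did not share this shift, with 1 of 12 at least 2-fold higher (the immunoproteasome gene PSMB8, 1.02) and a median of 0.15. In the SkBr3 pair no class II gene with a value was at least 2-fold higher, and HLA-DMA was lower (-1.99).

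Class II promoters carry a Y box, bound by NF-Y, with the letters CTGATTGG, which were also chosen after the values were seen. On both strands of the same 250-base windows these letters were found for 3 of the 9 list genes with a promoter sequence and for 4.59% of all genes. They were also found for 5 of 12 MHC class I genes and 6 of 18 cholesterol synthesis genes, so they did not set the class II genes apart from lists that were mostly within 2-fold. The matches are shown because each belongs to a gene that was at least 4-fold higher in the clone, and none overlapped another motif searched.
HLA-DRB1 (chr6:32589868-32589919, minus strand): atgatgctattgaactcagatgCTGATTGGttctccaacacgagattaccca
HLA-DQB1 (chr6:32666719-32666770, minus strand): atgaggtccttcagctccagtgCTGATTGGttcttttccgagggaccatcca
HLA-DMA (chr6:32953150-32953201, minus strand): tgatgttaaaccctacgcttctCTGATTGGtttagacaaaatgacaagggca
The capitals mark the matched letters on the gene's strand, and the sequences are those of the reference genome, not of BT474.

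Interferon-stimulated genes were mixed. Of 27 with a value, 7 were higher by 2-fold or more and 3 lower by as much, with a median of 0.48. For 7 members the filter was met in the clone array only. SAMD9 (39.1 and 264) and IFIT1 (70.4 and 459) were the highest, at 2.22 and 2.17, followed by HERC5 (1.75), IFI44 (1.66), IFIT2 (1.51), IFITM1 (1.41) and OAS3 (1.04). ISG20, an exonuclease gene, was lower, at 11772 in parental BT474 and 2058 in the clone (8.30-fold), as were IRF7 (-1.18) and USP18 (-1.0). MX1 (0.34) stayed within 2-fold. The letters of the interferon element (TTTC, any 2 bases, TTTC) were present before 19 of the 27 list genes with a promoter sequence and before 3.71% of all genes. Windows of 3 such genes are shown because the letters stood before genes that were higher (IFIT1, SAMD9) as well as before one that was lower (ISG20).
IFIT1 (chr10:89392485-89392538, plus strand): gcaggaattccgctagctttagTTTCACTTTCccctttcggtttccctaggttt
SAMD9 (chr7:93118084-93118137, minus strand): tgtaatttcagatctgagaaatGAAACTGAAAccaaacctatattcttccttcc
ISG20 (chr15:88638925-88638978, plus strand): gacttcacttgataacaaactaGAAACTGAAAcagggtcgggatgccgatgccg
In SAMD9 and ISG20 the capitals are the same element read on the opposite strand.

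NF-κB target genes, the study's main interest, were mostly dim or within 2-fold in this clone. Of 42 list genes, 21 were not kept. Among the 20 with a value, 4 were at least 2-fold higher, 0 were at least 2-fold lower and the median was -0.01, near that of all genes. BIRC3, which encodes the apoptosis inhibitor cIAP2, had 97.0 in parental BT474 and 580.0 in the clone (4.12-fold). TNFAIP2 (1.41), the subunit gene REL (1.39) and CD83 (1.11) were the others, and for 3 list members the filter was met in the clone array only. The κB letters (GGG, any 5 bases, CC) stood before 32 of the 36 NF-κB list genes with a promoter sequence and before 57.8% of all genes. They also stood before 16 of 18 cholesterol synthesis genes, 10 of the 15 genes with the largest upward differences that had a promoter sequence and 12 of the 18 with the largest downward ones.

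Basal and mesenchymal genes were higher in part, and luminal genes slightly lower, by an amount that depended on the scaling. Of 19 basal and mesenchymal genes with a value, 10 were at least 2-fold higher and 1 lower, the median was 1.24, and 5 met the filter in the clone array only. CAV1, the main structural protein of caveolae, had a signal of 37.3 in parental BT474 and 2725 in the clone (50.3-fold), and both probes agreed in direction (5.65 and 6.44). FOXC1, a transcription factor of basal-like tumours, had 281 in parental BT474 and 8544 in the clone (20.9-fold). The transcription factor gene SNAI2 was at least 15.8-fold higher, to 366, and TWIST1 differed by 2.31 on 1 probe and 1.05 on the other. Of the keratins on this list, 3 keratins were higher, with KRT16 at 3.74, KRT15 at 1.61 and KRT14 at 1.5 on 1 probe but 0.12 on another. The basal keratins KRT5, KRT6B and KRT17 were not kept, so this does not hold for basal keratins as a group. The mesenchymal marker VIM went the other way, at 19393 in parental BT474 and 9843 in the clone (-1.52). TP63 (0.27), CD44 (-0.19), CDH2 (0.90) and SNAI1 (0.79) were within 2-fold, and FN1, ZEB1, ZEB2 and SPARC were not kept. Of 26 luminal genes with a value, 5 were at least 2-fold lower and 0 higher, with a median of -0.54. The lower ones were the mucin gene MUC1 (-1.36), the transcription factor gene SPDEF (-1.19), the splicing factor gene ESRP1 (-1.12), KRT18 (-1.06, another probe -0.36) and CLDN7 (-1.04). GATA3 (0.26), CDH1 (-0.19) and FOXA1 (-0.75) were not among them. After quantile normalization 3 of the 26 luminal genes were at least 2-fold lower, and the list's median was -0.26. The same change moved the median of the reference genes from -0.11 to 0.13, so the size of the luminal difference depends on the scaling.

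Among matrix genes, several of the laminin-332 and hemidesmosome anchoring system were higher. LAMA3 had a signal of 64.9 in parental BT474 and 5671 in the clone, with probe differences of 2.25 and 5.91. LAMB3 had 1271 in parental BT474 and 13565 in the clone (7.35-fold), and COL17A1, a transmembrane collagen of hemidesmosomes, had 58.1 in parental BT474 and 1075 in the clone (12.7-fold), with another probe at 2.32. The integrin receptor chains ITGA6 and ITGB4 differed by 1.24 and 0.62. This set was put together after its values were seen. Of 18 collagen and laminin genes with a value, 6 were at least 2-fold higher and 1 lower, with COL7A1 (1.53), COL4A5 (1.5) and COL12A1 (1.34) also higher and COL9A3 (-1.73) lower. Among 11 integrins with a value, ITGA6 and ITGA3 (1.18) were higher and ITGB2 (-2.54) was lower. Of 10 matrix proteases and inhibitors with a value, 5 were higher, namely ADAMTS1 (2.73), MMP28 (1.72 and 3.83 on its probes), TIMP2 (1.70), and TIMP3 and SERPINB5 (at least 10.04-fold and 4.48-fold). MMP11 (-1.92) was lower. For 4 of these 10 the filter was met in the clone array only, and the median of the list was 1.34, or 0.78 when genes not well above background on both arrays were left out.

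Enzymes of xenobiotic metabolism were more often higher than lower. Of 26 with a value, 14 were higher by 2-fold or more and 4 lower by as much, with a median of 1.01, and 3 met the filter in the clone array only. ALDH1A3, a retinaldehyde dehydrogenase, had a signal of 97.7 in parental BT474 and 1293 in the clone (9.13-fold), and CYP4B1 had 705 in parental BT474 and 6954 in the clone (6.80-fold). CYP1A1, CYP1A2 and UGT1A6, known targets of the aryl hydrocarbon receptor, were higher by 2.20, 1.32 and 1.83, and ALDH3A1 was at least 4.88-fold higher. CYP1B1, another such target, differed by 0.25. The second CYP1A2 probe gave 3.68. NAT1 (1.78), SULT2B1 (1.51), CYP4Z1 (1.24), GSTK1 (1.12) and GSTM3 (1.11) were further members. UGT2B15 (-1.68) and GSTP1 (-1.09) were lower. ABC transporters as a list were centred on 0.05, with 3 of 26 at least 2-fold higher and 3 lower. ABCG2, the breast cancer resistance protein gene, had 99.5 in parental BT474 and 9092 in the clone (62.9-fold), and the multidrug transporter gene ABCB1 was at least 10.2-fold higher, to 236. ABCA5 (1.78) was the third, and ABCA12 (-2.96), ABCC3 (-2.12) and ABCC11 (-1.32) were lower. The 21 NRF2 targets with a value split around a median of 0.21, with AKR1C3 (at least 21.96-fold), AKR1B10 (2.26), HMOX1 (1.78) and TXNRD1 (1.09) higher, and SLC7A11, ABCC3 and SRXN1 (-1.04) lower.

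**Figure D3:**
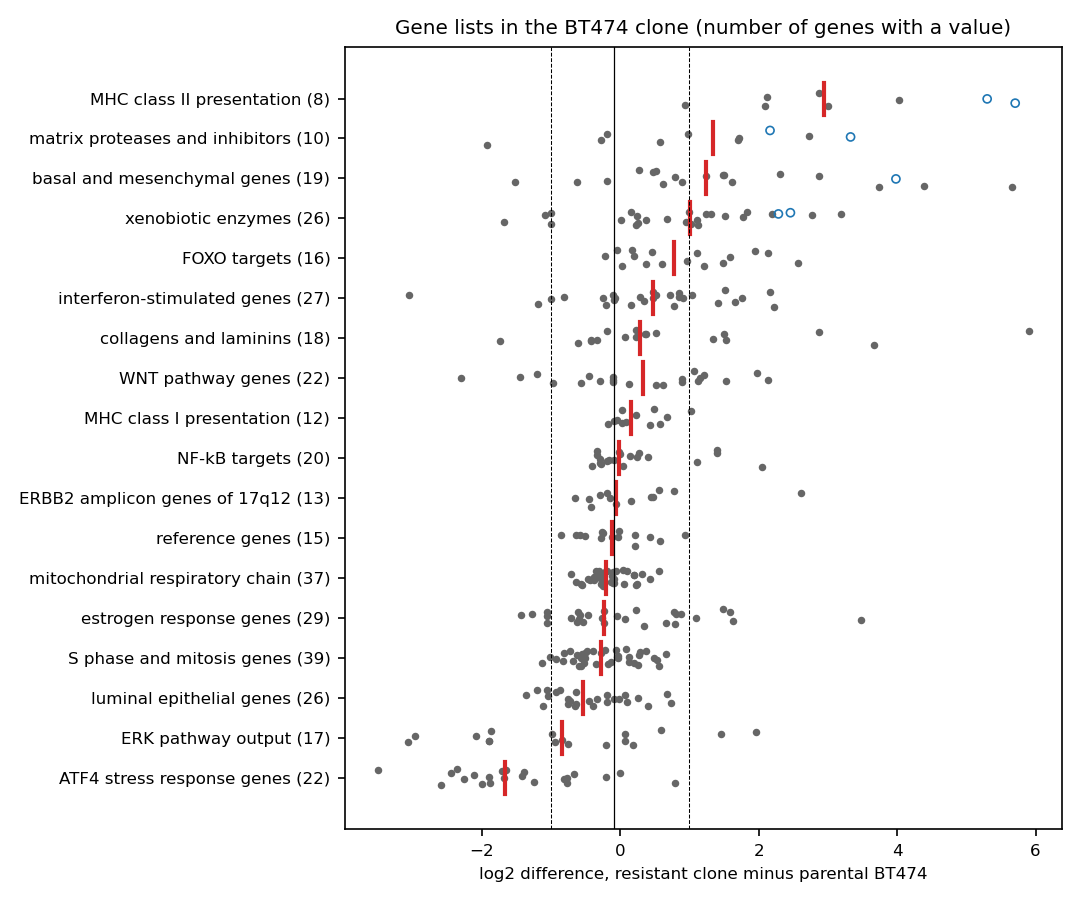
Log2 difference, clone minus parental BT474, of every gene with a value in 18 lists (x axis), with the list's median as a red bar and genes not well above background on 1 array as open circles. The solid line is the median of all genes (-0.08), dashed lines are 2-fold, and the lists run from a median of 2.94 for MHC class II genes to -1.67 for ATF4 genes.

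Estrogen response genes did not move as a set. Of 29 genes with a value, 5 were higher by 2-fold or more and 5 lower by as much, around a median of -0.23 that was 0.059 after normexp correction with quantile normalization. PDZK1, a scaffold protein gene, had a signal of 216 in parental BT474 and 3502 in the clone (11.2-fold). The carbonic anhydrase gene CA12 (1.63), the apoptosis inhibitor gene BCL2 (1.49), IRS1 and the cathepsin gene CTSD (1.09) were higher. MYB (-1.43), IGFBP5 (-1.27), SERPINA1 (-1.06), PRLR (-1.06) and CXCL12 (-1.05) were lower. The receptor genes ESR1 (1067 and 2851, 0.88) and PGR (5955 and 15183, 0.81) were higher by less than 2-fold, and TFF1 (-0.58) and GREB1 (0.07) were within 2-fold.

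Developmental signalling genes went both ways within each list. Among 23 TGF-β and BMP genes with a value (median 0.18), the BMP target genes ID3 (1636 and 10358, 2.13), ID4 (1.44) and ID1 (1.43) were higher, the co-receptor gene TGFBR3 was at least 32.3-fold higher, and the ligand genes BMP7 (56218 and 15653, -2.38 and -3.32 on its probes) and TGFB3 (-2.13) were lower. SMAD9 differed by 1.82. Of 22 WNT pathway genes with a value, 7 (31.8%) were at least 2-fold higher and 3 (13.6%) lower, beside 8.69% and 4.99% of all genes. These counts depended on the scaling, with 3 higher and 4 lower when the arrays were scaled by the median. The higher ones included the ligands WNT3A (1.98), WNT7B (1.53) and WNT6 (1.16 and 3.11 on its probes) and the receptors FZD7 (2.13) and FZD2 (1.13). The WNT antagonist DKK1 (-2.29) and the receptors FZD4 (-1.45) and FZD8 (-1.2) were lower. In the Notch pathway the ligand JAG1 had 91.7 in parental BT474 and 921 in the clone (6.92-fold), HES2 differed by 1.22 and the effector HEY2 was lower (499 and 71.0, -3.35), out of 14 genes with a value and a median of -0.18.

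Most apoptosis and cell cycle genes with a value were within 2-fold, but the shares beyond it differed between lists. At least 2-fold higher were 17.6% of death receptor and caspase genes, 12.5% of BCL2 family genes and 23.1% of G1 genes, beside 8.69% of all genes. Of the p53 targets, 17.6% were at least 2-fold lower, beside 4.99% of all genes. Each of these shares rests on 2 or 3 genes. In the death receptor and caspase list of 17 genes with a value (median -0.09), the ligand TRAIL, encoded by TNFSF10, had 289 in parental BT474 and 4791 in the clone (11.4-fold), the decoy receptor gene TNFRSF11B had 66.4 in parental BT474 and 1472 in the clone (15.3-fold) and CASP10 differed by 1.34, while the TRAIL receptor gene TNFRSF10B was lower (3826 and 1457, 3.81-fold). Of 16 BCL2 family genes, BCL2 and the death effector BAX (1.28) were higher and none was at least 2-fold lower. Among 39 genes of S phase and mitosis, CDC20 (-1.13) and CCNB1 (-1.01) were at least 2-fold lower and none was higher, with a median of -0.27. CDK6 (554 and 3216), a G1 kinase, and the CDK inhibitor genes CDKN1C (1.74) and CDKN2B (1.13) were higher among 13 G1 genes with a value, and none was at least 2-fold lower. Of 17 p53 targets with a value, BAX was higher and TNFRSF10B, SESN2 and PLK3 (-1.59) were lower.

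Most genes of the metabolic lists were within 2-fold. All 37 genes of the mitochondrial respiratory chain were within 2-fold (-0.71 to 0.56), as were all 15 reference genes (-0.86 to 0.93, median -0.11). Of 30 lysosomal genes, CTSD and CTSK (1.1) were higher and none was at least 2-fold lower. Of 14 fatty acid synthesis genes, the desaturase gene FADS2 was lower (52286 and 16388, 4.63-fold), and THRSP (1.59) and ACSS2 (1.08) were higher. Of 27 hypoxia and glycolysis genes (median -0.28), the angiogenic factor gene VEGFA (2209.6 and 706, -2.18) and P4HA1 (-1.77) were lower, and NDRG1 (1.45) and the glucose transporter SLC2A1 (1.07) were higher. Of 10 S100 calcium-binding proteins with a value, S100P was lower (31403 and 4077, 11.2-fold), and S100A2 (2.57) and S100A4 (2.0) were higher. Of 9 annexins ANXA1 (1.04) alone was beyond 2-fold, and of 15 claudin and tight junction genes CLDN8 (1.24) was higher and CLDN7 lower.

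**Figure D4:**
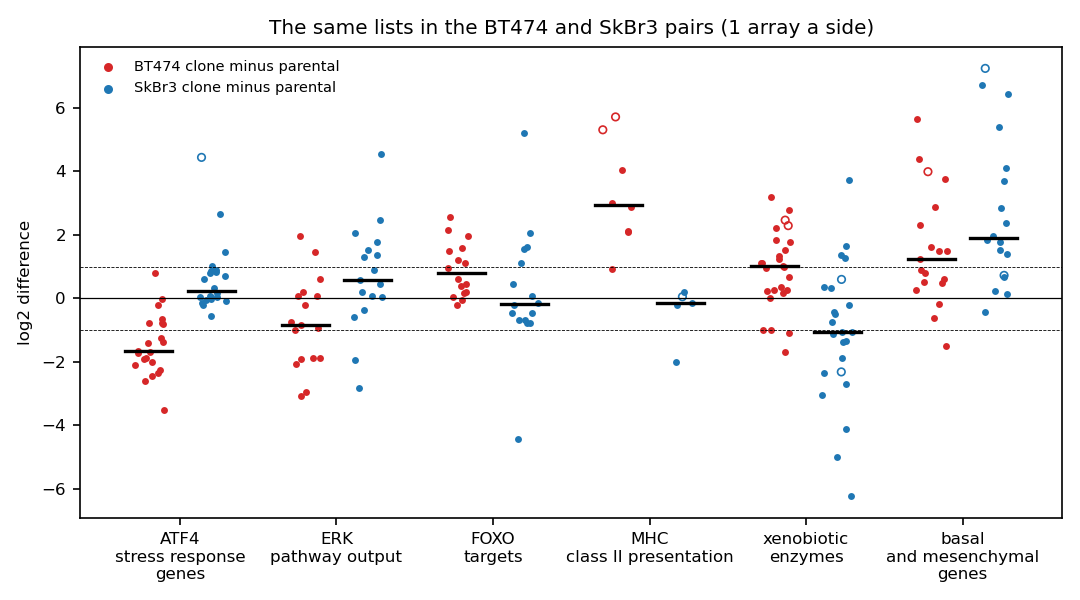
Log2 difference, clone minus parental (y axis), of the same genes in the BT474 pair (red) and the SkBr3 pair (blue) for 6 lists, 1 array a side, with black bars as medians and open circles as limits. ATF4 genes have medians of -1.67 and 0.24, ERK genes -0.84 and 0.58, and xenobiotic enzymes 1.01 and -1.06.

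Several lists had different values in the 2 cell lines. Among the same genes, 11.2% were at least 2-fold higher and 13.1% lower in the SkBr3 pair. Xenobiotic enzymes had a median of 1.01 in BT474 and -1.06 in SkBr3, where 13 of 24 were at least 2-fold lower. ERK output genes had medians of -0.84 and 0.58, and basal and mesenchymal genes of 1.24 and 1.90. ABCG2 was higher in both lines (5.98 and 8.55), as were FOXC1 (4.39 and 6.71) and LYN (limits of 5.35 and 4.40). With 1 array a side, none of these differences between lines was tested, and the SkBr3 clone was on another slide.

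Some of the genes beyond 2-fold lie side by side. When genes were put in RefSeq order along each chromosome and a running median was taken over 11 genes, 56 of 11009 windows had a median of at least 0.9 and 2 of at most -0.9. They formed 11 higher runs and 1 lower run. These runs were picked by their values, so they are a description. On chromosome 19, KLK5, KLK7, KLK8, KLK10, KLK11 and KLK13 were higher (5.77, at least 3.18, 7.04, 1.68, 4.15 and at least 2.86), while KLK9 (0.70), KLK12 (-0.24) and KLK14 (-0.41) between and beside them were within 2-fold. Pregnancy-specific glycoprotein genes formed another run, with PSG8 (4.49 and 2.29 on its probes), PSG6 (4.42), PSG4 (at least 4.21), PSG9 (at least 4.04), PSG1 (at least 2.76) and PSG7 (at least 2.15). The fatty acid hydroxylase genes CYP4F22, CYP4F8 (4.94), CYP4F12 (3.83), CYP4F2 (1.78 and 4.48 on its probes) and CYP4F11 (at least 2.46) were higher beside PGLYRP2, whereas their neighbours TPM4 (0.12) and RAB8A (-0.13) were not. Near the end of the X chromosome, XG, NLGN4X (3.59), VCX3A (2.54), STS (2.60), VCX (2.32), VCX2 (2.36) and MXRA5 (2.01) were higher among genes within 2-fold such as PRKX (-0.42), PUDP (0.20) and TBL1X (-0.29). Further higher runs held the class II genes, with HLA-DQA2 lower (123 and 43.6, -2.04), the type I keratins KRT13 (3.08), KRT15, KRT16 and KRT14, the metallothionein genes MT2A (1.23), MT1E (1.13), MT1G (1.2) and MT1X (1.24) with MT1F lower (-3.12), the acyl-CoA synthetases ACSM5 (at least 3.26), ACSM1 (2.53) and ACSM3 (1.11), CAV1 with CAV2 (1.49) and FOXP2 (2.82), ALPP with NPPC (at least 5.11), and 14 genes of chromosome 9 from AK3 (0.67) to MPDZ (1.45). That last run held unrelated genes, of which 6 were at least 2-fold higher. Its members included JAK2 (2.73), ERMP1 (1.54), RANBP6 (0.89), UHRF2 (0.91), GLDC (1.76) and KDM4C (1.07). The lower run, 12 genes of chromosome 14, held the serpin genes SERPINA5 (-3.79), SERPINA3 (-1.63) and SERPINA1. GSC (-1.63) and OTUB2 (-1.53), which are not serpins, were also lower there, and SERPINA6 (-0.42) was within 2-fold. Probes of PSG, CYP4F, metallothionein, VCX and HLA genes can bind close relatives, so single members of these families are uncertain, and DNA copy number was not measured here.

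**Figure D5:**
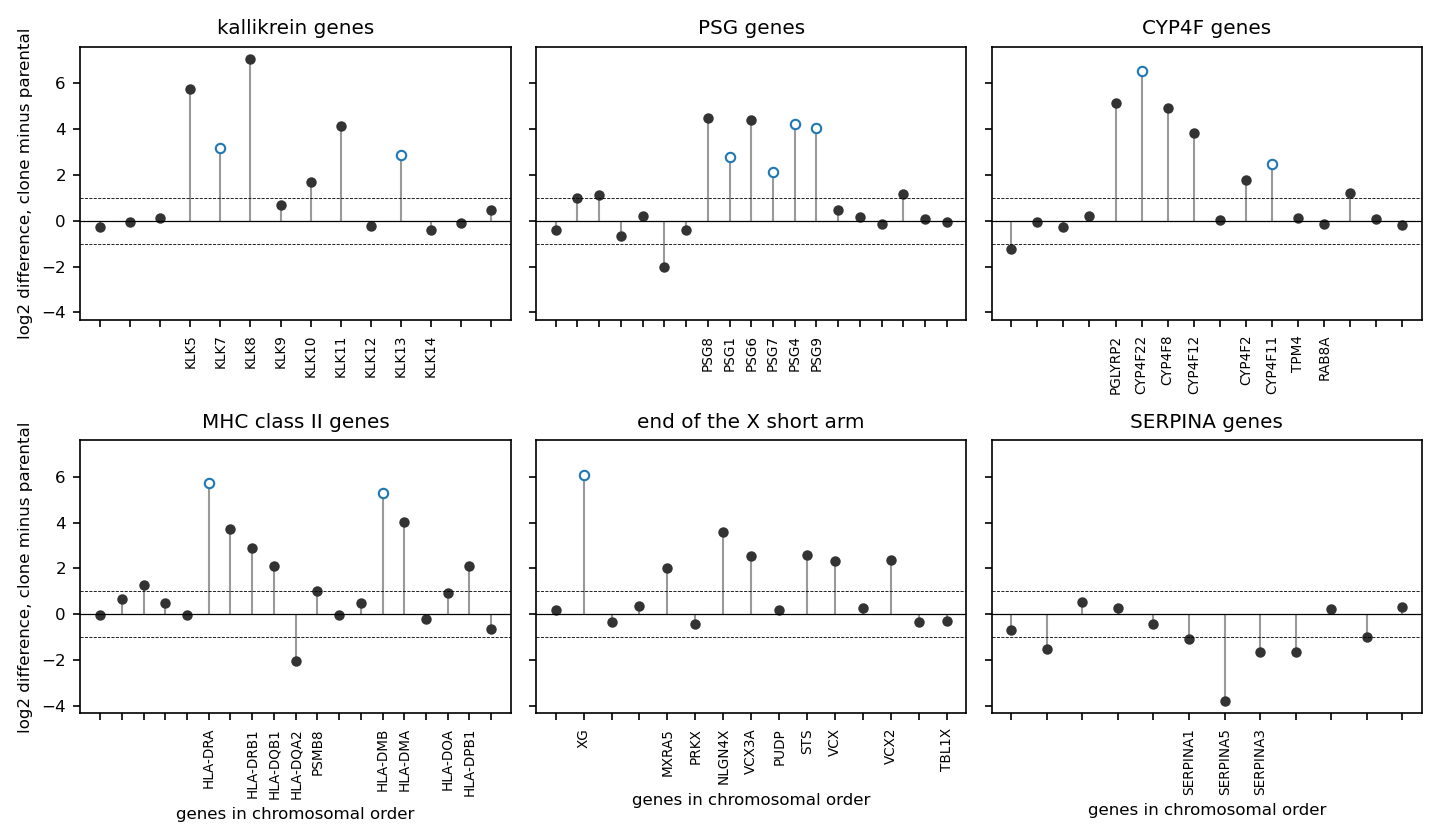
Log2 difference, clone minus parental BT474 (y axis), of genes in chromosomal order (x axis, evenly spaced, with only the genes described in the text labelled) in 6 of the 12 runs, with open circles for genes not well above background on 1 array and dashed lines at 2-fold. KLK8 (7.04) stands near KLK12 (-0.24), and SERPINA5 (-3.79) marks the lower run.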

How the data were processed

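Total RNA of each cell population was hybridised in 1 colour (Cy3 per the file headers) to an Agilent whole human genome array. The authors deposited scanner files with intensity values made by Feature Extraction 10.1.1.1, background-subtracted and detrended, and a table of log2 values. For the BT474 pair, the deposited log2 differences equalled the log2 differences of the intensities plus a constant of -0.538 for 40934 of 41000 probes (within 0.001). That table is centred per probe, its scaling is not stated, and its column medians were 0.106 in parental BT474 and -0.0457 in the clone. The study's methods name an older software version and LOWESS normalization, which the 1-colour files do not show.

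Control spots were left out, log2 signals were averaged per probe, and each array was scaled by subtracting its own 75th percentile (Python 3.11.15, numpy 2.4.6, pandas 2.3.3). Figures were drawn with matplotlib 3.10.9. A probe was well above background when at least 50% of its spots were marked so. Gene names came from RefSeq accessions for 23675 probes, which gave 11248 genes with a kept probe. Probes were kept at a signal of at least 100. Genes eligible to be named were the 20 largest differences in each direction measured on both arrays, the 10 largest limits in each direction, all members of lists of 15 or fewer genes, and in longer lists the 5 highest and lowest plus limits of at least 2-fold; of these the text names the ones its results turn on and gives the rest by range or count, and others were named with lists or chromosomal runs after their values were seen. The members and the 42 lists were chosen with earlier results of these data known. No test was possible with 1 array a side, and the number of arrays limits the precision. Alternatives were another scaling, quantile normalization, normexp on median signals with an offset of 50 (limma 3.58.1 in R 4.3.3), the deposited table, 16 added to the signal, other filters, a 3-fold threshold, outlier spots left out and the mean over a gene's probes. The steps were tested on simulated data. Promoter sequences were RefSeq's (GRCh38.p14). A few genes are not reported here.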

Additional observations from a re-analysis of the deposited data

Results flagged for a closer look

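The values below were singled out because the BT474 pair and the SkBr3 pair went at least 2-fold in opposite directions under the same contrast, clone minus parental. They were sought only among the genes with the largest differences or limits, the genes named in the text and the list medians. The account is therefore not a survey of all genes, and the share of all genes with opposite directions was not counted. Each line has 1 array a side, and the difference between the lines was not tested. The first value is BT474 and the second SkBr3, both as log2 differences. A limit is given where 1 side was not well above background.

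Among enzymes of xenobiotic metabolism the list median was 1.01 in BT474 and -1.06 in SkBr3, with opposite values for ALDH1A3 (3.19 and -3.04), CYP4B1 (2.77 and -1.36), CYP4Z1 (1.24 and -4.10), NAT1 (1.78 and -1.33) and SULT2B1 (1.51 and -1.88). UGT3A2 had limits of -4.20 and 1.48. Stress and amino acid genes lower in BT474 and higher in SkBr3 were GDF15 (-5.98 and 4.26), PSAT1 (-2.26 and 1.01) and VLDLR (-2.0 and 2.64). In growth factor signalling, the receptor gene EGFR (-1.34 and 1.32), the phosphatase gene DUSP6 (-2.08 and 1.29) and the prolactin receptor gene PRLR (-1.06 and 1.56) had the same pattern. By contrast, ID1 (1.43 and -3.94), WNT3A (1.98 and -1.84), PPP1R1B (2.61 and -1.71) and SELENOP (2.57 and -4.41) were higher in BT474 and lower in SkBr3. Of the immune and death signalling genes, HLA-DMA (4.03 and -1.99), SAMD9 (2.22 and -1.76), TNFSF10 (3.52 and -1.83) and TNFAIP2 (1.41 and -1.01) were higher in BT474 and lower in SkBr3. Cytoskeletal, matrix and adhesion genes went both ways, with VIM (-1.52 and 1.76), ITGB2 (-2.54 and 1.09), COL9A3 (-1.73 and 1.32), MUC1 (-1.36 and 1.17) and LASP1 (-7.20 and 1.72) lower in BT474, and COL4A5 (1.5 and -6.81), MXRA5 (2.01 and a limit of -4.48), S100A4 (2.0 and -1.54), DSCAM (5.08 and -1.01) and CBLN2 (6.76 and a limit of -3.37) higher. Other genes with opposite values were FADS2 (-2.21 and 5.46), THRSP (1.59 and a limit of -8.50), CA12 (1.63 and -9.45), CTSD (1.09 and -1.51), NDRG1 (1.45 and -2.85), PGM5 (5.2 and -6.86), ACSM1 (2.53 and -1.2) and ERMP1 (1.54 and -1.27). The remaining values were those of KLHDC7B (-4.12 and 6.53), CDC20 (-1.13 and 1.5), MT1F (-3.12 and 1.42), PSG4 (at least 4.21 and -2.01), PSG7 (at least 2.15 and -1.25) and TMEM139 (at least 8.23 and -2.91), and ZNF239 (a limit of -3.61 and 1.82).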

How the results depend on the processing

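Among list medians and named genes that were beyond 2-fold in the main setting, none changed sign under the alternatives run. Some smaller list medians did change sign. That of the ERBB2 amplicon genes was -0.06 and became 0.27 after quantile normalization. The median of the estrogen response genes was -0.23 and became 0.059 after normexp correction with quantile normalization. Of the list medians recomputed, 445 moved by less than the spread between probes of a gene and 17 by more, and the median over all kept probes ran from -0.25 to 0.02. The number of probes at least 2-fold higher became 1072 with a 3-fold threshold and 1402 with normexp and quantile normalization. The number of probes at least 2-fold lower became 424 with a 3-fold threshold, 1873 when scaled by the median and 1718 without a minimum signal. Under quantile normalization the list medians were 0.27 for ERBB2 amplicon genes, -0.26 for luminal genes and -1.36 for ATF4 genes. With normexp before it they were 0.27 for ERBB2 amplicon genes, 0.059 for estrogen response genes, -0.24 for luminal genes, 2.44 for MHC class II genes, 0.40 for annexins, 0.67 for matrix proteases and -0.16 for endothelial markers. Averaging the probes of a gene gave -0.48 for SRC-family kinases and 0.90 for basal genes. Without a minimum signal the medians of MHC class II genes and matrix proteases were 2.12 and 0.90. They were 2.50 and 0.78 for genes well above background on both arrays only, and a minimum signal on any of the 4 arrays gave 0.78 for matrix proteases. The cause was not tested. Of the values of named genes recomputed, 7509 moved by less than the spread between probes and 359 by more. No paired analysis was possible because each group had 1 array. Signal over background limits 233 higher and 24 lower probes to a bound. Differences smaller than the spread between probes of a gene (median 0.27, 90th percentile 0.86) cannot be read from these arrays. That spread does not cover cultures, RNA preparations or arrays, so a larger difference is not thereby shown to repeat.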
